A study of Mus musculus with 8 samples.

Results

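Histone H3 lysine 9 methylation is written by SET domain enzymes that act with a small number of direct partners, and the read levels of 10 of their genes are described here. The genes were chosen by name: the methyltransferases Setdb1, Setdb2, Ehmt1 (GLP), Ehmt2 (G9a), Suv39h1 and Suv39h2, and the partners Trim28, Atf7ip, Wiz and Zfp644. They are 10 of the 24062 genes counted, and all 10 passed the filter on low counts, which left 15313 genes. The question that the design puts to them is whether the Setdb1 transcript was lost after deletion, and whether the other writers were higher where SETDB1, G9a/GLP or both had been removed or inhibited.

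Poly(A) RNA was sequenced from mouse embryonic stem cells (mESCs) of 1 line with a conditional Setdb1 allele, so that the allele is carried by WT mESCs as well. WT mESCs were untreated. UNC0642-treated mESCs received 2 µM UNC0642, a catalytic inhibitor of G9a/GLP, for 3 days. Setdb1 KO mESCs received 800 nM 4-OHT (4-hydroxytamoxifen) for 5 days, which deletes the allele. The combined condition, UNC0642-treated Setdb1 KO mESCs, received both agents, and the labels give 2 days of 4-OHT followed by 3 days of UNC0642, whereas the protocol text gives 5 days of 4-OHT. Each condition had 2 biological replicates. The cells grew on gelatin. As no library had 4-OHT without the conditional allele, deletion and exposure to 4-OHT cannot be told apart.

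H3K9 methylation marks silent chromatin. SETDB1 is brought to retroelements by KRAB zinc finger proteins through the scaffold protein TRIM28 and writes H3K9me3 there, and ATF7IP binds SETDB1 and keeps it stable in the nucleus. G9a and GLP form a heterodimer that writes most H3K9me2 in euchromatin, and the zinc finger proteins WIZ and ZFP644 bind this dimer. SUV39H1 and SUV39H2 write H3K9me3 at pericentromeric heterochromatin. SETDB2 is a relative of SETDB1 with a divided SET domain.

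The results turn on 3 of the genes, Setdb1, Atf7ip and Ehmt2, and their promoters are shown for the base composition of the places where their transcripts start. Each run covers 250 bases before and 50 bases after the start of a transcript, 5′ to 3′ on the strand of the gene, with each CpG in capitals. The sequences are those of RefSeq on GRCm38.p6. Setdb1 starts on the minus strand (chr3:95357153-95357452), Atf7ip on the plus strand (chr6:136518601-136518900) and Ehmt2 on the plus strand (chr17:34898224-34898523).
Setdb1: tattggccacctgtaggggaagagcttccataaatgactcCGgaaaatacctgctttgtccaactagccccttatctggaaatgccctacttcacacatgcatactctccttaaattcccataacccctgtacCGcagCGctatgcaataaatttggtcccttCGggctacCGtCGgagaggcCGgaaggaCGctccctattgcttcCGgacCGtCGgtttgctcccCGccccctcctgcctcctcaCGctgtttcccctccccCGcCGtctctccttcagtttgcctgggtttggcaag
Atf7ip: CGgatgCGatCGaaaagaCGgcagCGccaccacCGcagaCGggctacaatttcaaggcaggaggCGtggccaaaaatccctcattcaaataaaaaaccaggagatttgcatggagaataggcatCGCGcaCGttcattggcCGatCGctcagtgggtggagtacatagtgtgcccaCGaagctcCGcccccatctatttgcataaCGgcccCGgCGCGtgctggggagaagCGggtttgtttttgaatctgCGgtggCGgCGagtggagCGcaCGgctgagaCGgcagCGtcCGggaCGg
Ehmt2: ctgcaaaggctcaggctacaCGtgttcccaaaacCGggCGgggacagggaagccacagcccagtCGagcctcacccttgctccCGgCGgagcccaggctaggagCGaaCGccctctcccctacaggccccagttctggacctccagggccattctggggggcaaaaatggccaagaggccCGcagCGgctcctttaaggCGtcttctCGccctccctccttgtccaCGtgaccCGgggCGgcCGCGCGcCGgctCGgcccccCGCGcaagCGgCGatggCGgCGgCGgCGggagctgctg
The Setdb1 promoter holds 15 CpGs, and 34.6% of the 32851 promoters of this length hold at least as many. The Atf7ip promoter holds 29 (12.9% of promoters hold at least as many) and the Ehmt2 promoter shown 28 (14.2%). A second Ehmt2 start listed by RefSeq (chr17:34898720-34899019) holds 40 CpGs (3.91%). The Atf7ip start shown lies inside the gene as annotated by GENCODE, which begins upstream at base 136506167. No promoter at that upstream start was listed. Over the 16 promoters listed for the 10 genes the median was 28.5 CpGs, against 7 over all promoters, and 15 of the 16 lay above the latter. No chromatin measurement at these promoters was analysed here.

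The total count per library lay between 11702590 and 26807807, with 1 library of WT mESCs and 1 of the combined condition near the lower end. All 10 markers of mESCs that were listed were detected in every condition, and their summed level lay between 4323 and 6603 CPM (TMM-normalised counts per 1000000 counts). The summed level of 5 markers of the 2-cell-like state, an early-embryo-like state that some mESCs enter, was 7.49 and 19.9 CPM in WT mESCs, 643 and 204 CPM in UNC0642-treated mESCs, 302 and 112 CPM in Setdb1 KO mESCs and 1178 and 474 CPM in the combined condition. The summed level of 5 fibroblast markers lay between 42 and 359 CPM, highest in the combined condition. Sums of 5 markers each lay between 8.34 and 62.1 CPM for trophoblast, primitive endoderm and the germ layers. In WT mESCs 1 trophoblast and 1 germ layer marker, and in the combined condition 2 trophoblast markers, were at or under 3 counts in both libraries. Against WT mESCs, all 5 primitive endoderm markers were higher after UNC0642 and lower in Setdb1 KO mESCs, and none was called. With a replicate block in the edgeR fit, 1 germ layer marker was called higher in each condition with deletion. The block also gave 1 trophoblast marker called lower in the combined condition. Without it, 1 germ layer marker was called higher in the combined condition. The 2-cell-like and fibroblast sums were above both WT libraries in all 6 treated libraries, and their part in the results below was not tested. All 5 markers of the 2-cell-like state were higher than in WT mESCs in each treated condition. Of the 5 fibroblast markers, 2 were higher and 3 lower in UNC0642-treated mESCs, and 3 were higher and 2 lower in each condition with deletion. The fibroblast sum therefore does not stand for a rise of the whole list.

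Setdb1 was the targeted gene (GRCm38 chromosome 3, 95323525 to 95357202, minus strand). It was measured at 169 and 127 CPM in replicates 1 and 2 of WT mESCs, at 130 and 86.4 CPM in UNC0642-treated mESCs, at 47.3 and 51 CPM in Setdb1 KO mESCs and at 61.1 and 34.1 CPM in the combined condition. All 4 libraries with 4-OHT lay below all 4 libraries without it. The mean of Setdb1 KO mESCs was 33.1% of that of WT mESCs (49.2 ± 2.63 against 148 ± 29.8 CPM, SD, n = 2), and the mean of the combined condition was 32.1% (47.6 ± 19.1 CPM). The counts behind the 4 libraries with 4-OHT were between 589 and 1117, so the remaining level was far above the detection floor of 3 counts.

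The sources used here do not say which exons the deletion removes, and the deposited count covers the whole gene. Reads from exons outside the deleted part are included in the remaining level. From the read counts alone it cannot be told apart whether some cells kept an intact allele or each cell kept some transcript. The paper reports that western blotting found no detectable SETDB1 protein in this conditional line after the treatment given to Setdb1 KO mESCs. The source of the remaining reads was not tested here. The annotation places 75 exonic bases of Setdb1 on those of Cers2, which is transcribed from the opposite strand, or 1.09% of the exonic length of Setdb1. The setting for strand in the counting is not given in the sources used here.

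In the fit across all genes, the log2 fold change of Setdb1 in Setdb1 KO mESCs was -1.59 ± 0.44 (SE; 95% interval -2.58 to -0.61) and its adjusted p was 0.181 by edgeR, which does not pass the threshold of 0.05. With the replicate number as a block, a term that takes out the difference shared by libraries of the same number, the change was -1.56 (-2.18 to -0.93) with an adjusted p of 0.0164 by edgeR. Against UNC0642-treated mESCs, the change in the combined condition was -1.19 ± 0.43 (adjusted p = 0.387 by edgeR without and 0.0437 with the block), and this blocked call was lost when any 1 of the 4 libraries compared was left out (adjusted p between 0.0868 and 0.361 by edgeR). With the block, Setdb1 no longer passed in Setdb1 KO mESCs when replicate 1 of that condition was left out (-1.22, adjusted p = 0.166 by edgeR).

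Setdb1 in the combined condition stood at a log2 fold change of -1.64 ± 0.44 against WT mESCs (adjusted p = 0.0746 by edgeR without and 0.00593 with the block). Without replicate 2 of that condition the blocked change was -1.4 (adjusted p = 0.0764 by edgeR). Between the combined condition and Setdb1 KO mESCs the log2 difference was -0.05 (95% interval -1.01 to 0.92), so that any difference within these bounds remains possible. UNC0642 alone gave a Setdb1 mean of 73.1% of WT, with libraries that overlapped those of WT mESCs and a log2 fold change of -0.45 (-1.42 to 0.51).

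**Figure D1:**
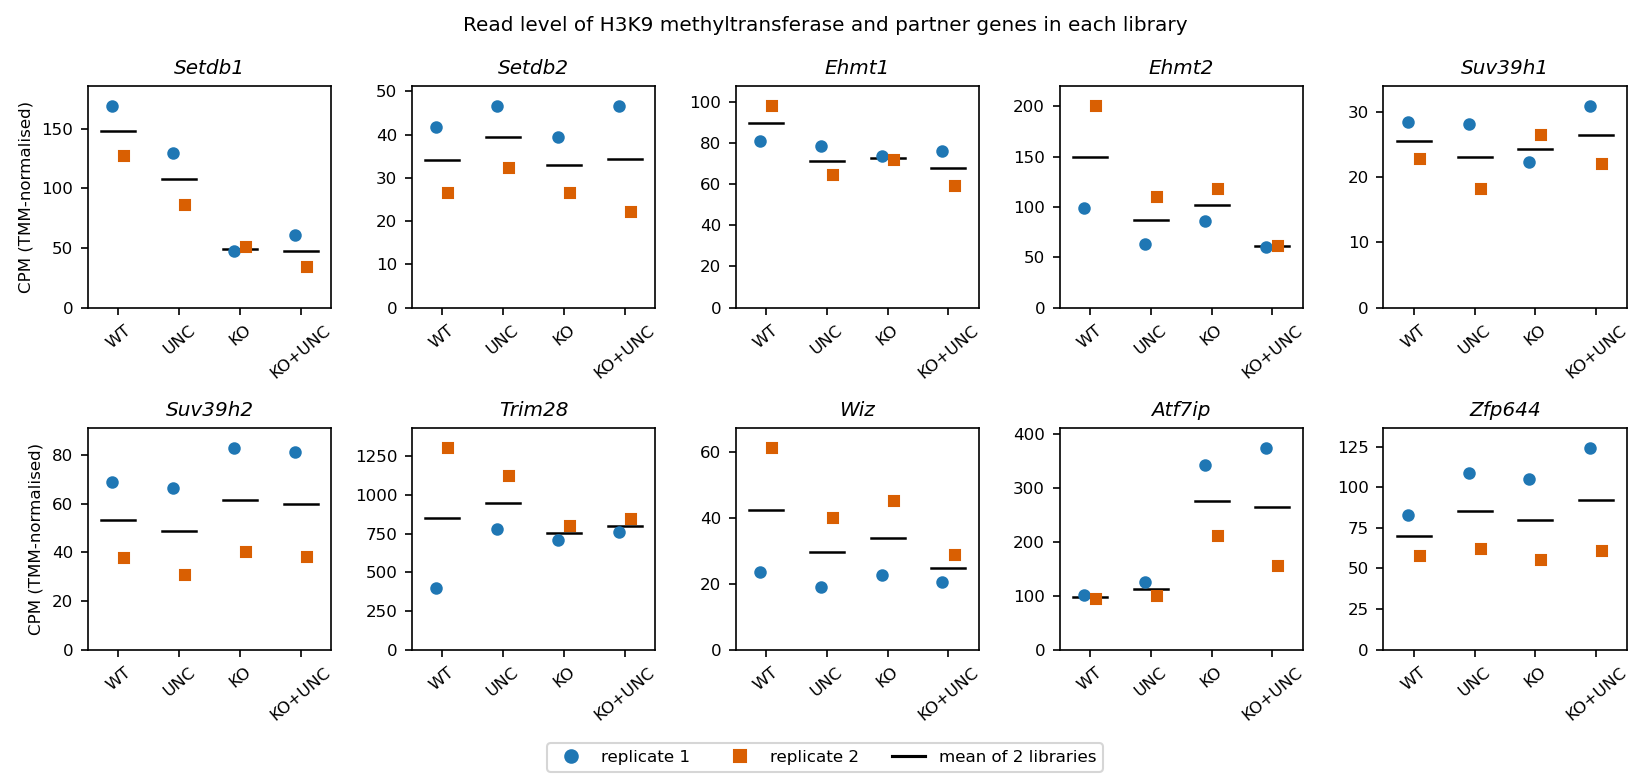
Level of each of the 10 genes in CPM (linear axis from 0, a scale of its own for each gene) in the 8 libraries; circles are replicate 1, squares replicate 2 and black lines the mean of 2 libraries. From WT to Setdb1 KO mESCs the mean of Setdb1 goes from 148 to 49.2 CPM and that of Atf7ip from 98.3 to 276 CPM, while replicate 1 lies above replicate 2 for Suv39h2 and Zfp644 and below it for Wiz and Trim28 in every condition.

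Of the other writers none passed the test in Setdb1 KO mESCs, with or without the block. Setdb2 (chromosome 14), the closest relative, was measured at 41.7 and 26.5 CPM in WT mESCs and at 39.5 and 26.5 CPM in Setdb1 KO mESCs. The 4 libraries paired almost exactly by replicate number, and the means were 34.1 ± 10.7 and 33 ± 9.18 CPM (SD, n = 2). Its log2 fold change was -0.05 ± 0.49 (95% interval -1.16 to 1.06), and with the block the interval in fold was 0.656 to 1.44.

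Suv39h1 and Suv39h2, the writers of pericentromeric H3K9me3, overlapped between conditions. Suv39h1 (chromosome X) stood at 28.4 and 22.8 CPM in WT mESCs, at 22.3 and 26.5 CPM in Setdb1 KO mESCs and at 30.9 and 22.1 CPM in the combined condition. Suv39h2 (chromosome 2) stood at 68.9 and 37.9 CPM in WT mESCs, at 82.9 and 40.2 CPM in Setdb1 KO mESCs and at 81.3 and 38.2 CPM in the combined condition. Replicate 1 of Suv39h2 was above replicate 2 in 4 of 4 conditions, by more than the conditions differed. The log2 fold changes in Setdb1 KO mESCs were -0.07 (95% interval -1.04 to 0.89) for Suv39h1 and 0.21 (-1.11 to 1.52) for Suv39h2. For the latter, 357 exonic bases (8.1% of its exonic length) are shared with Dclre1c on the opposite strand, and for the former 14.6% with an antisense gene, and reads from these bases cannot be told apart without strand.

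Ehmt1 (chromosome 2), which encodes GLP, was at 81 and 97.8 CPM in WT mESCs, at 78.6 and 64.2 CPM in UNC0642-treated mESCs, at 73.5 and 71.8 CPM in Setdb1 KO mESCs and at 76.1 and 59.2 CPM in the combined condition. Both libraries of each treated condition lay below both libraries of WT mESCs, and the means were 79.9%, 81.3% and 75.7% of WT. The log2 fold changes were -0.32, -0.3 and -0.4, and each 95% interval included 0, the last running from -1.22 to 0.42. With the block, too, none passed (the adjusted p in the combined condition was 0.267 by edgeR).

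Ehmt2 (chromosome 17, 34898469 to 34914052, plus strand), which encodes G9a, was measured at 99 and 200 CPM in WT mESCs, at 63.2 and 110 CPM in UNC0642-treated mESCs, at 86 and 118 CPM in Setdb1 KO mESCs and at 60.6 and 61.6 CPM in the combined condition. Both libraries with deletion and inhibitor lay below the other 6, and no other group was separate from WT mESCs. The mean was 150 ± 71.7 CPM (SD, n = 2) in WT mESCs and 61.1 ± 0.685 CPM in the combined condition, or 40.8% of WT. Set against the WT library of the same number, Ehmt2 was below WT in 6 of 6 treated libraries, from 86.8% (Setdb1 KO, replicate 1) to 30.7% (combined condition, replicate 2).

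The log2 fold change of Ehmt2 in the combined condition against WT mESCs was -1.29 ± 0.47 (95% interval -2.36 to -0.23), with an adjusted p of 0.185 by edgeR without the block. With the block it was -1.2 (-1.84 to -0.56), with an adjusted p of 0.0235 by edgeR. With a correction for GC content in the same blocked fit the change was -0.59 (adjusted p = 0.113 by edgeR), and without the block it was -0.53. The blocked call was also lost without replicate 2 of WT mESCs (-0.88), of UNC0642-treated mESCs (-1.23) or of the combined condition (-0.83). UNC0642 alone gave -0.79 (-1.85 to 0.26), deletion alone -0.55 (-1.61 to 0.5), and the interaction of both was 0.05 (-1.43 to 1.54), none of which passed.

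The bounds that these data set on a higher level of the other writers can be read from the intervals. In Setdb1 KO mESCs with the block, the upper bound of the fold change was 1.09 for Ehmt2, 1.19 for Ehmt1, 1.44 for Setdb2, 1.53 for Suv39h1 and 1.6 for Suv39h2. In the combined condition it was 0.679 for Ehmt2, 1.1 for Ehmt1, 1.44 for Setdb2, 1.62 for Suv39h1 and 1.54 for Suv39h2. Without the block the intervals were wider, with upper bounds of the log2 fold change in Setdb1 KO mESCs of 0.5 for Ehmt2, 0.52 for Ehmt1, 1.06 for Setdb2, 0.89 for Suv39h1 and 1.52 for Suv39h2. The same bounds in the combined condition were -0.23, 0.42, 1.12, 1.01 and 1.48. With 2 libraries per condition, a higher level up to these wider bounds remains possible. All of these bounds were taken without the correction for GC content. With that correction the log2 fold change of Ehmt2 in the combined condition was -0.53, and -0.59 with the block, so its bounds here depend on that choice. None of the 5 genes had both libraries of Setdb1 KO mESCs above both of WT mESCs, where 15.4% of all tested genes did. With 5 genes, none is near this share. Set against the WT library of the same number, Suv39h2 was above WT in 4 of 4 libraries with deletion (120% and 106% in Setdb1 KO mESCs, 118% and 101% in the combined condition), and its blocked intervals spanned 0.

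**Figure D2:**
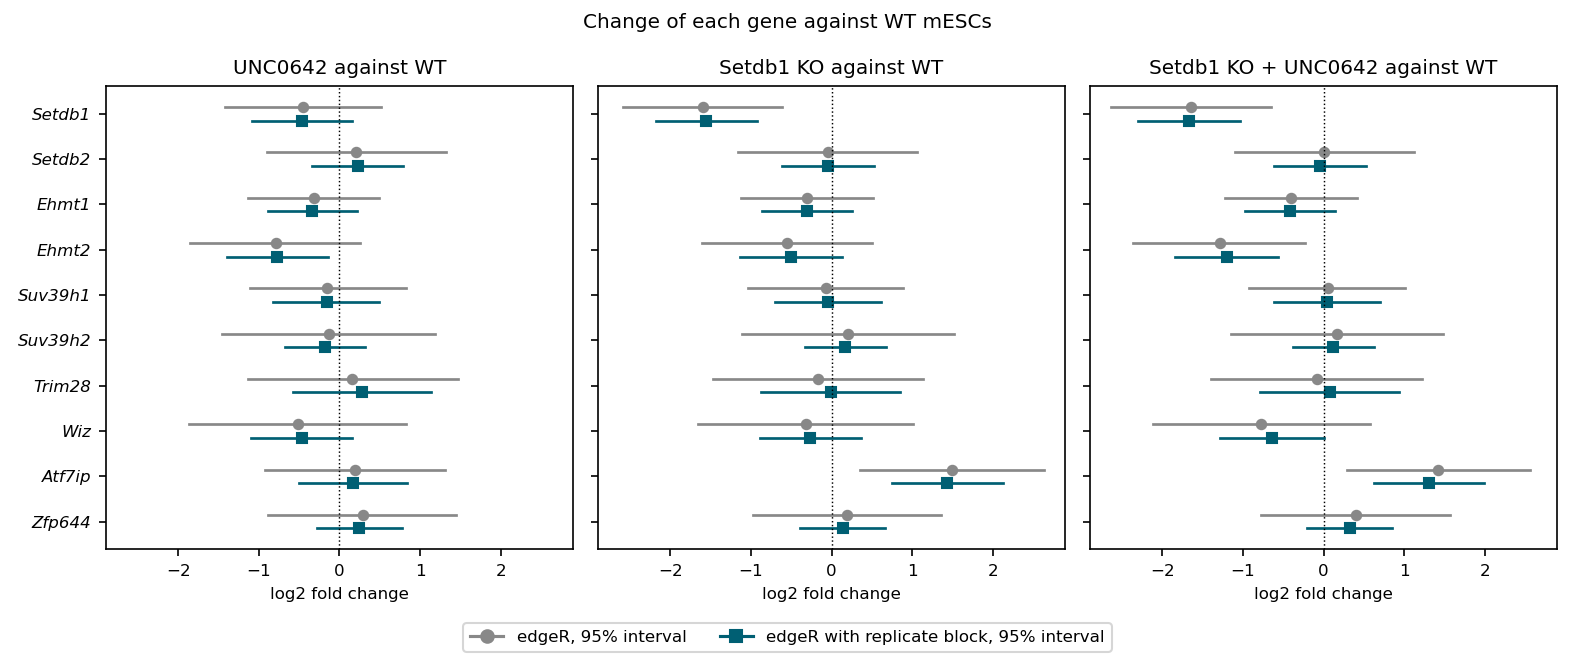
Log2 fold change of each gene against WT mESCs in UNC0642-treated, Setdb1 KO mESCs and the combined condition, by edgeR without (circles) and with the replicate block (squares); lines are 95% intervals. The intervals of Setdb1 and Atf7ip exclude 0 in both conditions with deletion, that of Ehmt2 in the combined condition and, with the block only, in UNC0642-treated mESCs (-1.4 to -0.14), and those of Setdb2, Ehmt1, Suv39h1, Suv39h2, Trim28 and Zfp644 span 0 throughout.

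Of the partners of SETDB1 among the 10 genes, Atf7ip (chromosome 6, 136506167 to 136610862, plus strand) was the one called higher, and with the block only. It was measured at 102 and 94.2 CPM in WT mESCs, at 126 and 99.2 CPM in UNC0642-treated mESCs, at 341 and 211 CPM in Setdb1 KO mESCs and at 373 and 155 CPM in the combined condition. All 4 libraries with 4-OHT lay above all 4 without it, and the lowest of them, replicate 2 of the combined condition, was at 165% of the WT library of the same number. The mean was 281% of WT in Setdb1 KO mESCs (276 ± 91.9 against 98.3 ± 5.84 CPM, SD, n = 2) and 268% with UNC0642 (264 ± 154 CPM). Across the 8 libraries the log2 levels of Atf7ip and Setdb1 correlated at r = -0.66, a description over libraries of 4 conditions.

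The log2 fold change of Atf7ip was 1.49 ± 0.51 (95% interval 0.35 to 2.63) in Setdb1 KO mESCs, with an adjusted p of 0.326 by edgeR without the block and 0.0339 with it (1.43, 0.75 to 2.12). With both treatments it was 1.42 ± 0.5, with an adjusted p of 0.169 by edgeR without and 0.0223 with the block (1.31, 0.62 to 1.99). Without the block, the change in the combined condition was 0.65 without its replicate 1 and 1.93 without its replicate 2, and that in Setdb1 KO mESCs was 1.1 and 1.77 without its replicates 1 and 2. With the block, the call in Setdb1 KO mESCs was lost when replicate 1 of WT (1.13), either replicate of UNC0642-treated (1.42 and 1.38) or either of Setdb1 KO mESCs (1.37 and 1.47) was left out. That in the combined condition was lost without replicate 1 of WT (0.98), replicate 2 of UNC0642-treated (1.27) or replicate 1 of the combined condition (0.84). Against UNC0642-treated mESCs the blocked change of 1.14 had an adjusted p of 0.073 by edgeR.

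Trim28 (chromosome 7), the scaffold between KRAB zinc finger proteins and SETDB1, had the highest level of the 10 genes and the largest SD in WT mESCs. It stood at 395 and 1301 CPM in WT mESCs, at 780 and 1119 CPM in UNC0642-treated mESCs, at 707 and 800 CPM in Setdb1 KO mESCs and at 760 and 841 CPM in the combined condition. The WT libraries enclosed those of all other conditions. Set against the WT library of the same number, replicate 1 gave 198%, 179% and 192% and replicate 2 gave 86%, 61.5% and 64.6% in the order of the conditions above, so the direction depended on the replicate. Trim28 was not called, and its log2 interval in Setdb1 KO mESCs ran from -1.47 to 1.13.

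Wiz and Zfp644, partners of G9a and GLP, did not pass in any comparison. Wiz (chromosome 17) was at 23.6 and 61.2 CPM in WT mESCs and at 20.7 and 28.9 CPM in the combined condition, and its libraries overlapped. Against the WT library of the same number it was lower in 6 of 6 treated libraries, from 95.6% (Setdb1 KO, replicate 1) to 47.2% (combined condition, replicate 2). The log2 fold change in the combined condition was -0.78 (95% interval -2.12 to 0.57), with an adjusted p of 0.577 by edgeR without and 0.146 with the block. When single libraries were left out, this change ranged from -0.98 to -0.3 with the block and from -1.31 to 0.08 without it. The annotation places 22.1% of the exonic length of Wiz on a long non-coding gene of the opposite strand. Zfp644 (chromosome 5) was at 82.7 and 57.5 CPM in WT mESCs and at 124 and 60.8 CPM in the combined condition, with a log2 fold change of 0.4 (-0.77 to 1.57).

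Counted over the 10 genes, none was called without the block in any of the 6 comparisons, and at an unadjusted p under 0.05 by edgeR 0 of them passed after UNC0642, 2 after deletion and 3 after both, each against WT mESCs. The shares of all tested genes called without the block were 0%, 0.888% and 3.62%, and those at the unadjusted p were 3.41%, 7.58% and 16.9%. With the block 0, 2 and 3 of the 10 were called, against 0.176%, 3.32% and 15.7% of all tested genes. The 2 were Setdb1 and Atf7ip and the 3 were Setdb1, Atf7ip and Ehmt2. Against Setdb1 KO mESCs none was called in the combined condition, with and without the block (0.124% and 0% of tested genes), and against UNC0642-treated mESCs 1 was called with the block, Setdb1 (3.79%), and 0 without it (0.908%). At the unadjusted p under 0.05 there were 0 against Setdb1 KO mESCs (4.7%) and 2, Setdb1 and Atf7ip, against UNC0642-treated mESCs (8.23%). None of the 10 was called for the interaction, where 0% of tested genes were called in both edgeR fits and 0 of the 10 had an unadjusted p under 0.05 (0.777% of tested genes). DESeq2 on all 8 libraries called Setdb1 alone in both conditions with deletion against WT mESCs, where it called 2.91% and 8.52% of all tested genes. It called none of the 10 in the other 4 comparisons, where the shares of all tested genes were 0.718% after UNC0642, 0.66% against Setdb1 KO mESCs, 3.01% against UNC0642-treated mESCs and 0.00653% for the interaction.

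Without regard to the test, both libraries of Atf7ip lay above both of WT mESCs in Setdb1 KO mESCs (1 of 10, where 15.4% of tested genes did so) and both of Setdb1 and Ehmt1 lay below (2 of 10, 13.9% of tested genes). In the combined condition 1 of 10 lay above (19.8%) and 3 of 10 lay below (22.2%), Ehmt2 being added. In UNC0642-treated mESCs 1 of 10 lay below, Ehmt1 (11.3%), and 0 lay above (13.1%). The combined condition had 0 above (12.2%) and 1 below (13.7%) Setdb1 KO mESCs, and 1 above (14.5%) and 2 below (17.6%) UNC0642-treated mESCs. With 10 genes, counts of 1 to 3 are near these shares. The median log2 fold change of the 10 genes was -0.12 in Setdb1 KO mESCs and -0.04 in the combined condition, against -0.06 over all tested genes in both.

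Libraries of the same replicate number differed from those of the other number in a manner that followed base composition. Ehmt2, Trim28 and Wiz, whose longest transcripts have 60.8%, 59.6% and 56.8% GC, were higher in replicate 2 in 4 of 4 conditions. Setdb2, Suv39h2, Atf7ip and Zfp644, with 42.6%, 43%, 47.7% and 39.2% GC, were lower in replicate 2 in 4 of 4. The mean log2 difference between replicates ranged from -1.03 for Suv39h2 to 0.98 for Wiz, and across the 10 genes it correlated with GC content at r = 0.928 (rho = 0.915), a description over genes that share the same libraries. Over all tested genes with a GC value the median difference rose from -0.65 in the lowest to 1.4 in the highest of 20 GC bins.

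The size of this difference was not the same in each condition, and a block assumes that it is. For Trim28 replicate 2 exceeded replicate 1 by 1.72 on the log2 scale in WT mESCs, 0.52 in UNC0642-treated, 0.18 in Setdb1 KO mESCs and 0.15 in the combined condition. For Ehmt2 the values were 1.02, 0.8, 0.46 and 0.02. The low level of Ehmt2 in the combined condition came with a loss of the replicate difference seen in WT mESCs, and the part of GC content in it was not tested beyond the correction. Setdb1, with 48.3% GC, lay near the middle of this range.

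**Figure D3:**
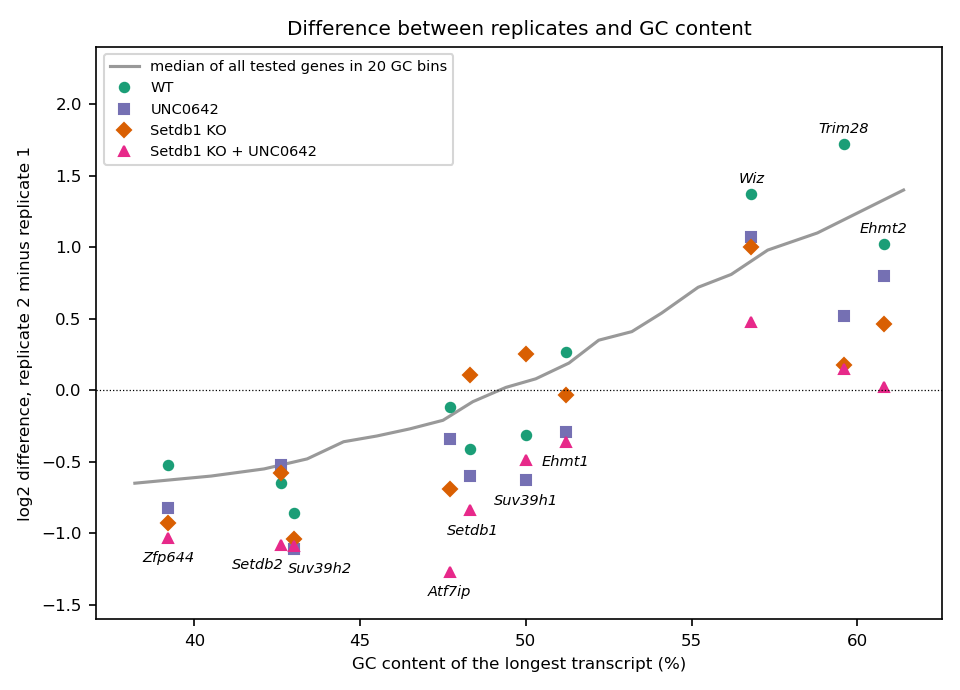
Difference between replicates 2 and 1 (log2 scale) of each gene in the 4 conditions against the GC content of its longest transcript (percent); the grey line joins the medians of all tested genes in 20 GC bins, averaged over conditions. Genes below 48% GC lie below 0 and the 3 genes above 56% GC lie above 0 in every condition, and the WT points of Wiz and Trim28 lie highest.

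Per length, the 10 genes kept a wide order of levels. In WT mESCs the means per kb of exon were 204 ± 154 CPM for Trim28, 27.3 ± 13.1 for Ehmt2, 21.7 ± 4.35 for Setdb1, 12.1 ± 4.98 for Suv39h2, 11 ± 1.47 for Ehmt1 and 8.43 ± 2.65 for Setdb2 (SD, n = 2). Zfp644, Suv39h1, Atf7ip and Wiz followed at 5.01, 4.86, 4.74 and 4.59 CPM per kb and did not differ beyond their spread. The libraries were separate from the next gene after Trim28, after Setdb1 and after Setdb2, and overlapped between Ehmt2 and Setdb1 and among Suv39h2, Ehmt1 and Setdb2. Setdb1 went from rank 3 in WT to rank 7 in Setdb1 KO mESCs (7.17 ± 0.384 CPM per kb), below Setdb2 at 8.15 ± 2.27, whose libraries overlapped with its own, and Atf7ip went from rank 9 to rank 4. With the longest transcript as length, Atf7ip was at rank 6 in WT mESCs and Setdb1 stayed at rank 3.

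**Figure D4:**
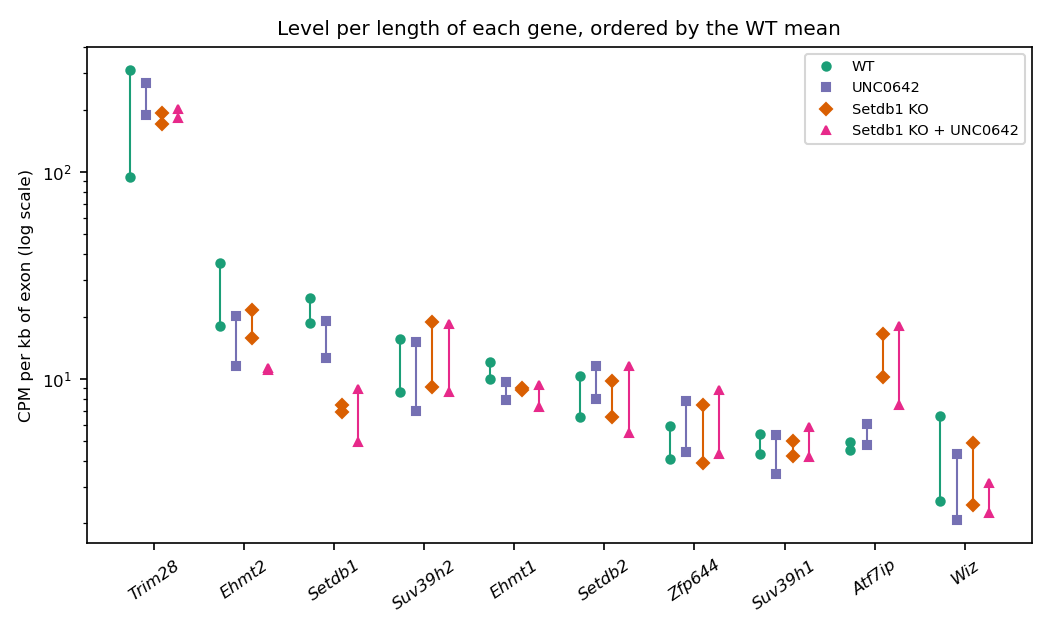
Level per kb of exon (CPM per kb, log axis) of the 10 genes in the 4 conditions, ordered by the WT mean; points are libraries and lines join the 2 of a condition. Trim28 lies above the rest, and in WT and Setdb1 KO mESCs Setdb1 is at 21.7 and 7.17 CPM per kb and Atf7ip at 4.74 and 13.3 CPM per kb.

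The genes whose log2 levels followed Setdb1 most closely over the 8 libraries were Lysmd2 (r = 0.988), Tanc1 (r = 0.979), Rab3ip (r = 0.976), Gatsl2 (r = 0.975) and Auts2 (r = 0.970). These are the highest of 15313 correlations over 8 libraries of 4 conditions and are given as a description. Among the other 9 genes described here the correlation with Setdb1 was highest for Ehmt1 (r = 0.69) and lowest for Atf7ip.

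The wider machinery was described by lists of genes with known roles. Of 16 partners and recruiters of SETDB1 and TRIM28, 4 were called higher in Setdb1 KO mESCs and 5 in the combined condition with the block, and 0 lower, while without the block it was 0 and 1. The median log2 fold changes of the list were 0.36 and 0.45, against -0.06 for all tested genes in both. Resf1, which encodes a protein that binds SETDB1 and acts in retroelement silencing, was at 126 and 107 CPM in WT mESCs, 209 and 143 CPM in UNC0642-treated mESCs, 1051 and 432 CPM in Setdb1 KO mESCs and 1174 and 602 CPM in the combined condition. All libraries with 4-OHT lay above all without it. Its log2 fold change was 2.67 ± 0.59 in Setdb1 KO mESCs (adjusted p = 0.0821 by edgeR without and 0.00259 with the block) and 2.93 ± 0.59 in the combined condition (0.0274 and 8.87e-04), so that Resf1 rose there in both fits. Without the block it was lost there when either WT library (adjusted p = 0.167 and 0.225 by edgeR) or replicate 1 of the combined condition (0.101) was left out.

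Other members of that list were KRAB zinc finger genes and a paralogue of Atf7ip. Zfp809, whose product brings TRIM28 to the primer binding site of murine leukaemia viruses, stood at 26.2 and 25.7 CPM in WT mESCs and at 118 and 69.2 CPM in the combined condition, and Zfp932 at 35.5 and 30.9 CPM and at 110 and 96 CPM. Both were called higher with the block in both conditions with deletion (adjusted p between 0.00344 and 0.0249 by edgeR), without the correction for GC content. In UNC0642-treated mESCs Zfp809 stood at 51.2 and 30.4 CPM and Zfp932 at 66.6 and 44.6 CPM. These libraries also lay above both of WT mESCs, and neither gene was called there. Atf7ip2 passed with the block in the combined condition (1.44, adjusted p = 0.0132 by edgeR) and stood at 1.06 in Setdb1 KO mESCs (0.0869). The remaining called gene of the list, in both conditions, was Zfp445, which was named after its values were seen.

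Of 11 H3K9 demethylases, 1 was called higher with the block in each condition with deletion and 0 and 2 were called lower, and none without it. Kdm4d had 0 and 5 counts in WT mESCs and 20 and 28 in Setdb1 KO mESCs, so that its change rests on few reads. Without the block, the largest log2 fold change in this list was 3.1 in UNC0642-treated mESCs, where none was called. It was 3.34 in Setdb1 KO mESCs and 3.3 in the combined condition. Kdm4b was at 25.7 and 51.9 CPM in WT mESCs and at 9.65 and 18.2 CPM in the combined condition, and Phf2 at 13.1 and 20.1 CPM and at 7.16 and 6.73 CPM. Both of these demethylase genes were called lower there with the block (-1.46 and -1.21, adjusted p = 0.0093 and 0.0488 by edgeR). Their adjusted p without it was 0.28 and 0.257 by edgeR. Leaving out single libraries with the block gave -1.61 to -1.3 for Kdm4b and -1.61 to -0.81 for Phf2. All of these values were taken without the correction for GC content.

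Of 10 partners of G9a and GLP besides Wiz and Zfp644, 1 was called higher with the block. This was Zfp518a in the combined condition (1.03, adjusted p = 0.0296 by edgeR), although its libraries overlapped those of WT mESCs. It was at 134 and 74 CPM in WT mESCs and at 343 and 122 CPM in the combined condition. In UNC0642-treated mESCs Zfp518a was at 304 and 148 CPM, above both WT libraries, and was not called. Of 11 writers of other repressive marks 1 was called lower with the block, Kmt5c, an H4K20 methyltransferase gene. This was in the combined condition (-0.87, adjusted p = 0.0393 by edgeR), also with libraries that overlapped those of WT mESCs. Without the block, leaving out single libraries gave -1.64 to -0.1 for Kmt5c and 0.23 to 1.73 for Zfp518a there. The values of both genes were taken without the correction for GC content. None of the 3 HUSH genes, the 5 genes of H3K9 methylation readers or the 3 of 4 listed PRDM genes that passed the filter was called with or without the block in any comparison. Without the block none of these lists held a called gene in Setdb1 KO mESCs. After UNC0642 alone no gene of any of the 7 lists was called, with or without the block. The shares of all tested genes called there were 0.176% with the block and 0% without it. Every share called with the block stands against 3.32% of all tested genes in Setdb1 KO mESCs and 15.7% in the combined condition. Without the block these shares were 0.888% and 3.62%.

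**Figure D5:**
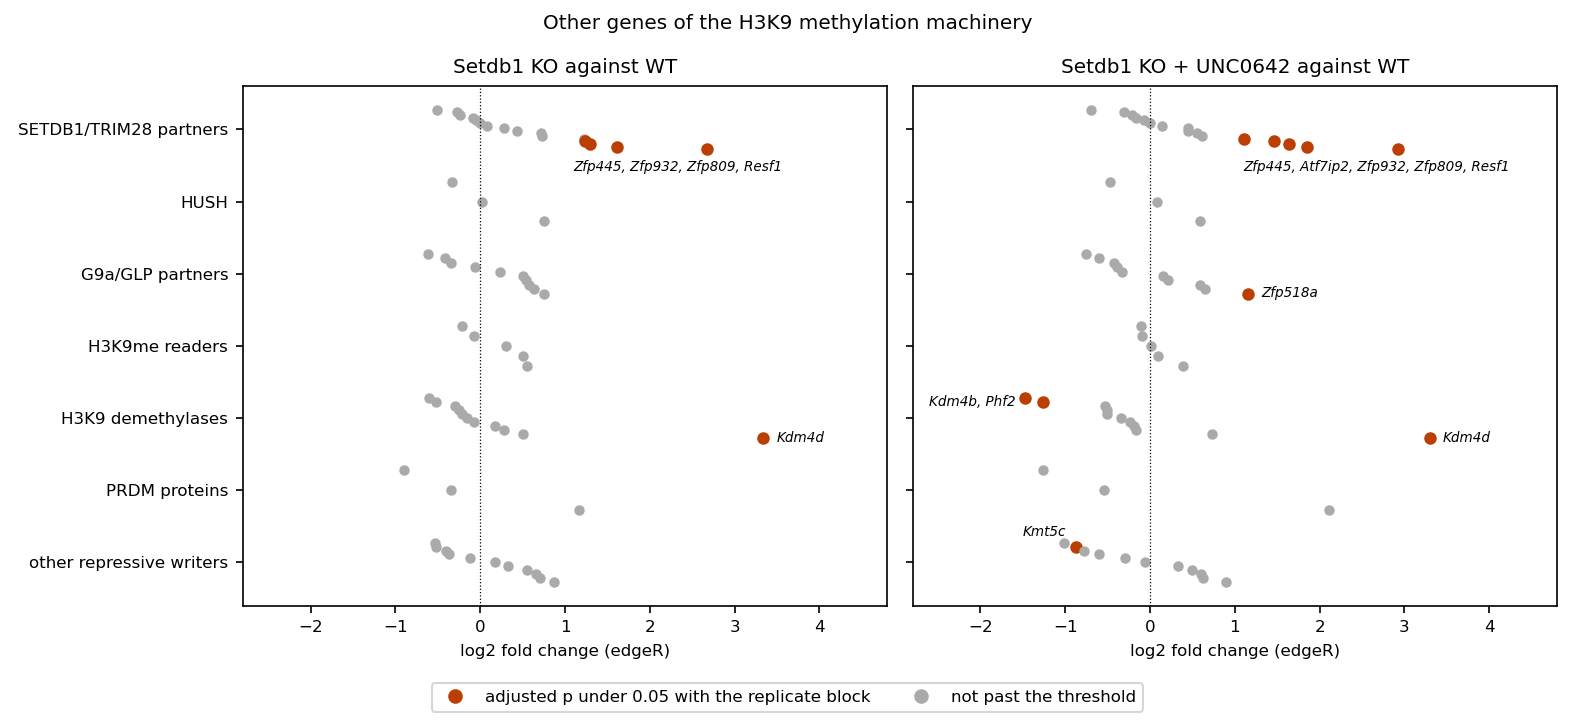
Log2 fold change by edgeR without the block of the tested genes of 7 lists in Setdb1 KO mESCs (left) and the combined condition (right) against WT mESCs; each point is a gene, and coloured, named points passed an adjusted p of 0.05 with the replicate block. The coloured points of the list of SETDB1 and TRIM28 partners, 4 on the left and 5 on the right, all lie above 0, and those of Kdm4b, Phf2 and Kmt5c lie below 0 on the right.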

How the data were processed

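Poly(A) RNA-seq libraries of 4 conditions with 2 biological replicates each were used, grouped by their labels. The authors trimmed the reads with Trim Galore 0.3.7, aligned them by TopHat2 to GRCm38 and ran TEtranscripts, which gave the deposited raw counts of 24062 genes and 1153 transposable element subfamilies. The gene annotation and the strand setting are not given in the sources used here.

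After filterByExpr (10 counts at least, 15 in total) 15313 genes and 932 subfamilies remained. Counts were scaled by TMM (0.81 to 1.2) and fitted by the quasi-likelihood test of edgeR 4.0.16 in R 4.3.3 on all 8 libraries, with 1 coefficient per condition. P-values were adjusted by Benjamini-Hochberg over all features, and a gene was called at an adjusted p under 0.05. CPM were divided by exonic length from GENCODE M21 on GRCm38 for levels per kb, and GC content was that of the longest transcript (99.1% of tested genes matched). Intervals are 95% confidence intervals of the log2 fold change, from its SE and degrees of freedom. The detection floor was 3 counts, for counting error only.

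Conditions share replicate numbers, which no source describes as grown together. The pairing was taken from the data, where the differences between replicates correlated over genes between all 6 pairs of conditions (r between 0.249 and 0.625), and a fit with a term for the number (block) stands beside the fit without it. These differences varied with GC content. With 2 replicates, p-values measure the spread between these cultures.

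Alternatives were DESeq2 1.42.0, fits of only the 4 libraries compared, RLE and total counts normalization, no filter (more than 1 count in any library), genes without subfamilies, a fold threshold of 10, and leaving out each library. A correction of each library by its median deviation in 20 GC bins, a block in DESeq2 and the block without each library were added after the data were examined. The edgeR fits without and with the block were tried on simulated counts. The 10 genes and the lists were chosen with earlier results of these data known. From each list, genes called in any comparison were named, at most 4 by smallest p, and the 5 genes most like Setdb1 by correlation.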

Additional observations from a re-analysis of the deposited data

How the results depend on the processing

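Setdb1, Atf7ip and Ehmt2 kept their direction in the conditions where they are named as changed under every alternative run, and what depended on the processing was whether they passed. The number of the 10 genes called in Setdb1 KO mESCs was 0 in the main fit, 2 with the replicate block, 1 with DESeq2 on all 8 libraries and 2 with a block in it, 1 with the GC correction and 2 with the GC correction and block, and 0 to 2 when single libraries were left out. The shares of all tested genes called there were 0.888%, 3.32%, 2.91%, 6.88%, 1.25% and 3.07%, in the order of these fits. In the combined condition it was 0 in the main fit, 3 with the block, 1 with DESeq2 and 3 with a block in it, 1 with total counts normalization, 1 with the GC correction and 2 with the GC correction and block, and 0 to 3 without single libraries. The shares there were 3.62%, 15.7%, 8.52%, 22.4%, 2.48%, 5.39% and 14.4%. Against UNC0642-treated mESCs it was 1 with the block, 1 with the GC correction and block, 2 with DESeq2 and a block (3.79%, 3.56% and 7.75% of all tested genes), and 0 to 2 without single libraries. The replicate block changed no other call of the 10 genes, and the cause of these differences was not tested.

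Genes that passed in no fit changed direction. In UNC0642-treated mESCs Zfp644 was at -0.07 with the GC correction, without and with the block. In Setdb1 KO mESCs Setdb2 was at 0.01 in the fit of genes only, Trim28 at 0.31 and Zfp644 at -0.27 with the GC correction, and Trim28 at 0.24, Zfp644 at -0.27 and Suv39h1 at 0.01 with the GC correction and block. In the combined condition Setdb2 was at -0.04 and Trim28 at 0.08 with the block, at -0.03 and 0.09 with DESeq2 and a block, and Setdb2 was at -0.21, Suv39h1 at -0.15 and Suv39h2 at -0.05 with total counts normalization, which shifted the median of all genes by -0.17. With the GC correction Setdb2 was at -0.39, Suv39h2 at -0.15, Trim28 at 0.63 and Zfp644 at -0.36, and with the block as well at -0.4, -0.19, 0.56 and -0.36. The interaction of Ehmt2 was at -0.13 with total counts normalization.

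Leaving out single libraries, with and without the block, gave in UNC0642-treated mESCs ranges of -0.07 to 0.58 for Setdb2, -0.49 to 0.11 for Suv39h1, -0.79 to 0.37 for Suv39h2, -0.45 to 1.29 for Trim28, -1.19 to 0.36 for Wiz, -0.12 to 0.55 for Atf7ip and -0.18 to 0.62 for Zfp644. In Setdb1 KO mESCs they were -0.37 to 0.31 for Setdb2, -0.98 to 0.03 for Ehmt2, -0.45 to 0.29 for Suv39h1, -0.41 to 0.7 for Suv39h2, -0.79 to 0.92 for Trim28, -0.95 to 0.51 for Wiz, -0.35 to 0.57 for Zfp644, -0.37 to 1.21 for Zfp518a, -1.49 to 0.06 for Kdm4b and -1.29 to 0.22 for Kmt5c. In the combined condition they were -0.63 to 0.46 for Setdb2, -0.22 to 0.28 for Suv39h1, -0.48 to 0.65 for Suv39h2, -0.71 to 1.03 for Trim28, -1.31 to 0.08 for Wiz and -0.21 to 0.83 for Zfp644. Between the 2 conditions with deletion Setdb1 ranged from -0.53 to 0.35, and the interaction from -0.09 to 0.81 for Setdb1, -0.55 to 0.57 for Ehmt2 and -1.04 to 0.28 for Atf7ip. Over all genes the block raised the number called from 0 to 27 in UNC0642-treated mESCs, from 136 to 509 in Setdb1 KO mESCs and from 554 (472 higher, 82 lower) to 2407 (1239 higher, 1168 lower) in the combined condition, against WT mESCs, and from 0 to 19 against Setdb1 KO and 139 to 580 against UNC0642-treated mESCs. DESeq2 on all 8 libraries gave 110, 445, 1304, 101 and 461, and the GC correction 3, 192, 825, 0 and 202. With a fold threshold of 10 none of the 10 genes was called. The totals of 11702590 to 26807807 counts left each of the 10 genes far above 3 counts in every library. Where a library was left out, the remaining one of its condition was assumed to vary like those of the other conditions.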
